A study of Mus musculus with 13 samples.

Results

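Disease-associated microglia genes were examined as 10 genes, Itgax, Clec7a, Cst7, Gpnmb, Spp1, Lpl, Cd9, Lyz2, Gpr84 and Cd52, found by their symbols among the 55401 gene identifiers of the deposited annotation. They were chosen by their measured levels, low in control mice and raised under cuprizone, so those levels are given as a description, with no test. All 10 passed the filter on low counts, which kept 14985 genes, and 5 of the 10 had fewer than 10 counts in each control library. Cst7 and Gpr84 passed it only with the cuprizone libraries, in which they are high. The libraries came from frozen brain hemispheres of male wild-type C57BL/6J mice, 1 library per mouse. Control mice (CTL, n = 5) received control chow for 6 weeks. Cuprizone mice (CPZ, n = 4) received chow with 0.3% cuprizone, a copper chelator that injures oligodendrocytes and strips myelin, for 4 weeks and were collected then. Recovery mice (RCV, n = 4, titled "Veh" in the labels) received the same chow for 4 weeks and control chow for a further 2 weeks. The labels give ages of 6 to 8 weeks, the study's methods an older age, and the labels state 4 CTL, 3 CPZ and 3 RCV mice, whereas 13 libraries were deposited. The study's methods state the same mouse numbers as the labels for its sequencing work. A figure caption of the study gives 5, 4 and 4 samples, all with bulk RNA-seq, as used here. CPZ mice were collected at week 4 and the other groups at week 6, so feeding and time on study cannot be told apart in a comparison with CPZ.

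Microglia are the resident phagocytes of the brain. Around plaques, dying cells and damaged myelin they lower the genes of their resting state and turn on a shared programme for binding, engulfing and digesting lipid-rich debris, much of it dependent on the receptor TREM2. Several of the 10 genes have further sources in the brain: Cd9 is also made by oligodendrocytes and blood vessels, Lpl by hippocampal neurons and Spp1 by some neurons. In RNA from a whole hemisphere, a larger number of microglia and more RNA per microglial cell cannot be told apart.

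The start regions of 3 of the 4 genes with near 0 control levels, those with a motif match, are shown first. The DNA around their starts can so be read beside their values. Windows of 250 bases before to 50 bases after the start, from RefSeq on GRCm38.p6, were at hand for 8 of the 10 genes (10 windows in all); Cd52 and Lpl had none. 3 short motifs were searched on both strands, the PU.1 core GAGGAA, the E-box CACGTG read by MITF, TFE3 and TFEB, and the AP-1 site TGANTCA. Capitals mark the matches, and sequences run 5′ to 3′ along the gene.
Itgax, chr7:128129300-128129599, plus strand: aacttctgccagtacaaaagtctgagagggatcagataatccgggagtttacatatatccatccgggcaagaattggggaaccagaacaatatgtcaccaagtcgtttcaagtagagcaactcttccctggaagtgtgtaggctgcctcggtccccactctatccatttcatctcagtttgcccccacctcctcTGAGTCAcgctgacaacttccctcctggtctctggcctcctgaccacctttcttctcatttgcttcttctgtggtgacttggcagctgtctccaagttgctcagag
Cst7, chr2:150570165-150570464, plus strand: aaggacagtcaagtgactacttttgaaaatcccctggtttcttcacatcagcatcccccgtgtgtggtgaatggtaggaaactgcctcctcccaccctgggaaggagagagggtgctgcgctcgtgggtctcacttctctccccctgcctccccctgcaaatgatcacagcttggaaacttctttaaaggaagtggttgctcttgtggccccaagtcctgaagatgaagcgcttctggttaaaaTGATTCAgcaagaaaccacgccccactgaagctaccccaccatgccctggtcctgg
Clec7a, chr6:129472730-129473029, minus strand: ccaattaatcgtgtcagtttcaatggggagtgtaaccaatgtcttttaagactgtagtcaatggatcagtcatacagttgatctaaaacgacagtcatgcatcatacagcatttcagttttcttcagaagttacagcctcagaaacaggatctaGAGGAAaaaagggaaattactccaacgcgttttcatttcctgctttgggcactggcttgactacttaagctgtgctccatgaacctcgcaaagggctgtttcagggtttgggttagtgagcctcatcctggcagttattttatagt
The AP-1 letters began 56 bases before the start of Itgax and 6 bases before that of Cst7, and they were also found 8 bases after the start of Gpnmb. They occurred in 3 of the 10 windows and in 7.81% of the 32851 promoter windows of the same length. The PU.1 core lay 96 bases before the start of Clec7a and, in 1 of its 2 windows, 113 bases before that of Spp1. It was found in 3 of the 10 windows, 2 of which are overlapping windows of Clec7a, and in 28.3% of all windows. The E-box was in 0 of the 10 and in 7.15% of all windows. The windows of Gpr84, which also had near 0 control levels, and of Cd9 and Lyz2 held none of the 3 motifs. A match of letters is a description of the window and not a measured binding site.

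The label "near zero in controls" held for 4 of the 10 genes. Per transcript length, Itgax, Cst7, Gpr84 and Clec7a had mean TPM (length-scaled transcript abundance) below 1 in CTL mice, between 0.184 ± 0.141 (SD, n = 5) for Itgax and 0.646 ± 0.320 (SD, n = 5) for Clec7a. Gpnmb stood at 1.59 ± 0.618 TPM (SD, n = 5) and Cd52 at 4.46 ± 1.82 (SD, n = 5). The other 4 genes were plainly expressed, Lpl at 10.1 ± 3.49 TPM, Lyz2 at 11.5 ± 5.39, Spp1 at 12.9 ± 5.76 and Cd9 at 69.7 ± 12.8 (SD, n = 5 each). Cd9 lay above 90.9% of all genes with a TPM above 0 in any library, and Itgax above 25.6%. Neighbours in this order overlapped between CTL libraries, except that every value of Cd9 (lowest 60.1) lay above every value of Spp1 (highest 22.8).

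Under CPZ the order of levels was another. Cd9 still led at 209 ± 55.5 TPM (SD, n = 4), followed by Spp1 at 172 ± 120, Lyz2 at 128 ± 43.2, Cd52 at 125 ± 38.3 and Cst7 at 116 ± 62.3 (SD, n = 4 each). Clec7a had 64.1 ± 20.0 TPM, Lpl 58.0 ± 20.4, Gpnmb 33.6 ± 13, Itgax 16.5 ± 5.27 and Gpr84 13.9 ± 7.23 (SD, n = 4 each). All neighbours in the CPZ order overlapped between libraries. Cst7 moved from the 30.3rd percentile of genes in CTL to the 95.2nd in CPZ mice. The order by gain in TPM was not the order by ratio. The mean TPM of Spp1 was higher by 159 and that of Cd9 by 139, against 115 for Cst7, which had the largest ratio, 63.4 for Clec7a and 16.4 for Itgax. In RCV mice Gpr84 was back at 1.52 ± 0.393 TPM (SD, n = 4), below every other gene, and Lyz2 at 63.9 ± 21.6 (SD, n = 4) stood next to Cd9 at 104 ± 18.7 (SD, n = 4).

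**Figure D1:**
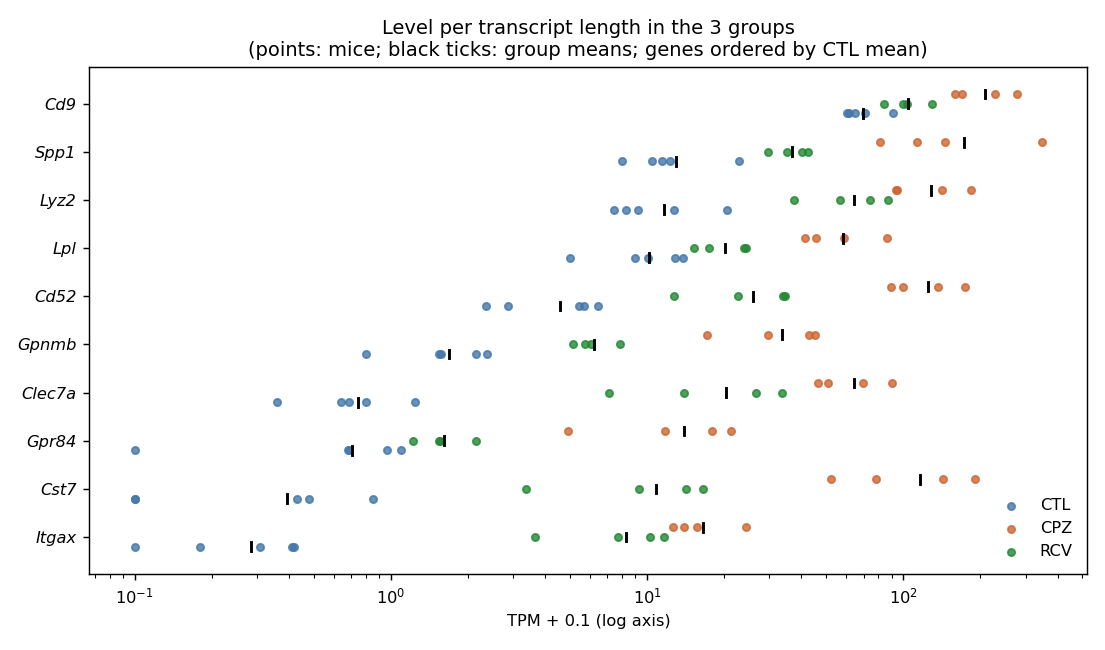
TPM plus 0.1 on a log axis for the 10 genes, ordered by their CTL mean; points are mice and black ticks are group means. Cd9 sits between 60.1 and 91.4 TPM in CTL mice, whereas Itgax, Cst7 and Gpr84 have at least 1 CTL library at 0.

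The receptors and surface proteins of the programme are taken first, in CPM (counts scaled to library size after TMM normalisation). Itgax (ENSMUSG00000030789.9, chromosome 7 from 128129547 to 128150657) encodes integrin alpha X, or CD11c, which pairs with the beta 2 chain to bind complement-coated material. The counts of Itgax in CTL mice 1 to 5 were 3, 4, 1, 4 and 0. The CPZ mice had 40.2, 19.2, 30.5 and 24.7 CPM and the RCV mice 11.7, 20.1, 6.16 and 22.3, in the order of replicates. Each CPZ and RCV mouse lay above each CTL mouse, and RCV replicates 2 and 4 lay above the lowest CPZ mouse, so CPZ and RCV overlapped. Summed counts over libraries gave a ratio of 76.3 for CPZ over CTL (95% exact interval 43.5 to 148, counting error only).

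Clec7a (ENSMUSG00000079293.11, chromosome 6 from 129461591 to 129472779) encodes dectin-1, a receptor for beta-glucans, and is typed as a polymorphic pseudogene in GENCODE M21. CTL mice held 2, 3, 3, 4 and 2 counts. CPZ mice had 60.4, 46.1, 33.0 and 35.1 CPM, and RCV mice 10.1, 18.3, 6.16 and 17.6. The 3 groups did not overlap, and the ratio of summed counts for CPZ over CTL was 101 (95% exact interval 59.9 to 185, counting error only).

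Gpr84 (ENSMUSG00000063234.5, chromosome 15 from 103308235 to 103310612) encodes a receptor for medium-chain fatty acids. Its counts were 5, 3, 3, 5 and 0 in CTL mice, 115, 115, 27 and 73 in CPZ mice and 11, 7, 6 and 4 in RCV mice. In CPM the RCV mice, at 0.867 to 1.61, lay just above the highest CTL mouse at 0.764, on 4 to 11 counts per library. Cd52 (ENSMUSG00000000682.7, chromosome 4 from 134082448 to 134095082), a short sugar-coated surface peptide of leukocytes, had 0.751 ± 0.317 CPM in CTL (SD, n = 5), 20.9 ± 6.42 in CPZ and 4.26 ± 1.70 in RCV mice (SD, n = 4 each). Crybg2 overlaps Cd52 on the other strand and held at most 14 counts in any library. Cd9 (ENSMUSG00000030342.8, chromosome 6 from 125460266 to 125494791) encodes a tetraspanin, a membrane organiser. It had 36.4 ± 7.08 CPM in CTL (SD, n = 5), 111 ± 29.0 in CPZ and 54.9 ± 9.66 in RCV mice (SD, n = 4 each). Of these 5 surface genes, RCV and CTL mice overlapped for Cd9 alone.

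Among the enzymes and the inhibitor, Cst7 (ENSMUSG00000068129.5, chromosome 2 from 150570415 to 150578944) encodes cystatin F, which inhibits cathepsins inside lysosomes. Its CTL counts were 1, 0, 2, 1 and 0, or 4 in all. CPZ mice had 77.2, 57.6, 21.1 and 32.7 CPM and RCV mice 5.72, 6.64, 1.35 and 3.69. The groups did not overlap, and CPZ replicate 1 held 3.66 times the level of CPZ replicate 3. The ratio of summed counts for CPZ over CTL was 382 (95% exact interval 149 to 1400, counting error only).

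Lyz2 (ENSMUSG00000069516.8, chromosome 10 from 117277331 to 117282321) encodes lysozyme of myeloid cells. CTL mice had 4.21, 11.7, 5.23, 4.59 and 6.97 CPM, CPZ mice 106, 80.8, 54.0 and 55.4, and RCV mice 32.4, 42.8, 21.9 and 49.4. The groups did not overlap, and RCV replicate 4, at 49.4, came close to the lowest CPZ mouse at 54.0. Reads shared with its close copy Lyz1 could be split between them by the counting. Lyz1 held 0 counts in CTL and RCV libraries and 1 to 2 counts in CPZ libraries. Lpl (ENSMUSG00000015568.16, chromosome 8 from 68880491 to 68907448) encodes lipoprotein lipase, which frees fatty acids from lipoproteins. It had 17.4 ± 6.67 CPM in CTL (SD, n = 5), 97.1 ± 31.0 in CPZ and 33.2 ± 8.51 in RCV mice (SD, n = 4 each), and RCV and CTL mice overlapped.

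Of the secreted and lysosome-linked proteins, Spp1 (ENSMUSG00000029304.14, chromosome 5 from 104435118 to 104441050) encodes osteopontin, a ligand of integrins and CD44. CPZ mice had 214, 90.2, 50.2 and 72.6 CPM, the widest spread of the 10 genes in CPZ (CV 68.9%, against 3.56% from counting alone). CTL mice lay between 4.92 and 13.8 CPM and RCV mice between 18.5 and 26.4, and the groups did not overlap. Gpnmb (ENSMUSG00000029816.10, chromosome 6 from 49036546 to 49070929) encodes a glycoprotein of phagocytic cells tied to lysosomal stress. It had 1.77 ± 0.471 CPM in CTL (SD, n = 5), 46.6 ± 20.0 in CPZ and 6.98 ± 2.12 in RCV mice (SD, n = 4 each), also without overlap.

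**Figure D2:**
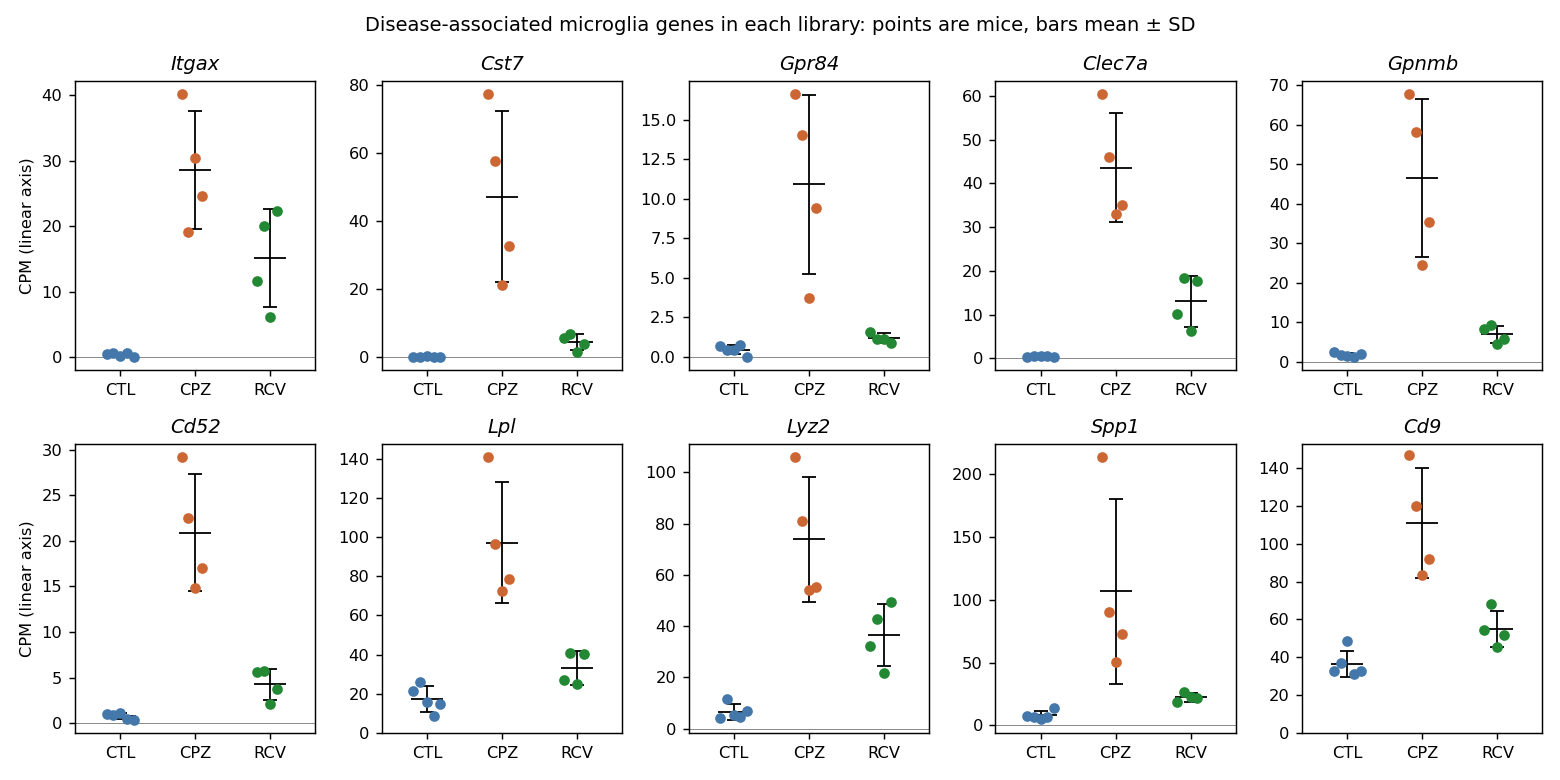
CPM of each gene on its own linear axis; points are mice in the order of replicates, bars are mean ± SD. CPZ replicate 1 is the highest CPZ mouse in all 10 panels, and for Itgax the RCV mice reach into the range of the CPZ mice.

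Between CPZ and CTL mice, all 10 genes were higher in each CPZ than in each CTL mouse, where 8.25% of all genes tested were, and all 10 were called higher, where 7.66% were. Since this contrast chose the genes, nothing is read from those counts. A gene was called where edgeR gave it an adjusted p below 0.05 (quasi-likelihood F test, Benjamini-Hochberg over 14985 genes). Fitted log2 fold changes of the genes with more than a few CTL counts were 1.6 for Cd9 (SE 0.18), 2.47 for Lpl (SE 0.29), 3.50 for Lyz2 (SE 0.34), 3.77 for Spp1 (SE 0.45) and 4.69 for Gpnmb (SE 0.35). Cd52, with only 2 to 7 counts per CTL library, had 4.73 (SE 0.32).

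The question of recovery is whether these genes were still raised after 2 weeks on control chow. The RCV libraries did not choose the genes, but the CTL libraries of this contrast did. Between RCV and CTL, 4 of the 10 genes were called higher, where 0.36% of all genes tested were. These were Itgax, with a log2 fold change of 5.28 (SE 0.57, adjusted p = 0.0019, edgeR), Clec7a with 4.86 (SE 0.48, adjusted p = 0.00061), Lyz2 with 2.49 (SE 0.35, adjusted p = 0.011) and Cd52 with 2.48 (SE 0.39, adjusted p = 0.0090). The sizes for Itgax and Clec7a rest on CTL counts near 0, and their ratios of summed counts were 40.3 (95% exact interval 22.8 to 78.8) and 30.1 (17.6 to 55.7, counting error only). That for Cd52 rests on 2 to 7 counts per CTL library. Cst7 had 4.99 (SE 1.05, adjusted p = 0.0913) and Gpnmb 1.98 (SE 0.43, adjusted p = 0.0975). The remaining values were 1.52 for Spp1 (SE 0.49), 1.28 for Gpr84 (SE 0.66), 0.92 for Lpl (SE 0.31) and 0.60 for Cd9 (SE 0.19), with adjusted p values from 0.389 to 0.851 in edgeR. Cst7 and Gpr84 passed the filter only with the CPZ libraries in it, so nothing is read from their values in this contrast. Each RCV mouse lay above each CTL mouse for 8 of the 10 genes, the exceptions being Lpl and Cd9, where 2.21% of all genes did so. All 10 fold changes were above 0, with a median of 2.23 beside -0.0044 for all genes tested.

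The count for RCV against CTL depended on the tool and on single libraries. DESeq2 called 7 of the 10 genes and limma-voom 0, while 9 were higher at an unadjusted p below 0.05 in edgeR, where 4.03% of all genes tested were. Without RCV replicate 2, Itgax and Clec7a alone were called, and without CPZ replicate 1, 7 genes were.

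Between CPZ and RCV, 8 of the 10 genes were called higher in CPZ, where 5.13% of all genes tested were. The CPZ libraries of this contrast are those in which the genes were seen to rise. The steepest differences were those of Cst7, with a log2 fold change of 3.39 (SE 0.46, adjusted p = 0.00099, edgeR), Gpr84 with 3.15 (SE 0.46, adjusted p = 0.00076) and Gpnmb with 2.71 (SE 0.32, adjusted p = 0.00039). Spp1 and Cd52 stood at 2.26 each, Clec7a at 1.75, Lpl at 1.55 and Cd9 at 1.01, with adjusted p values in edgeR from 0.00030 to 0.0090. Lyz2 had 1.02 (SE 0.31, adjusted p = 0.0738) and Itgax 0.93 (SE 0.33, adjusted p = 0.137), the smallest of the 10 values. DESeq2 and limma-voom each called 9, with Lyz2 added. For 9 of the 10 genes, mice did not overlap between CPZ and RCV, where 8.26% of all genes were higher in each CPZ than in each RCV mouse, and Itgax was the exception.

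How much of the rise remained was expressed in percent, with the mean CPM of CTL mice set to 0 and that of CPZ mice to 100, and read for every RCV mouse. Itgax kept 52.0% ± 26.5 (SD, n = 4) and Lyz2 44.6% ± 17.9. Clec7a followed with 29.2% ± 13.6, Cd9 with 25% ± 13, Lpl with 19.8% ± 10.7 and Cd52 with 17.4% ± 8.41 (SD, n = 4 each). Spp1 kept 14.5% ± 3.33, Gpnmb 11.6% ± 4.72, Cst7 8.99% ± 5.0 and Gpr84 6.90% ± 2.96 (SD, n = 4 each). Within each of the 4 RCV mice, the share of Itgax, Lyz2, Clec7a, Cd9 and Cd52 was above that of Gpnmb, Cst7 and Gpr84. The SD covers the RCV mice and not the error of the CTL and CPZ means.

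The median share over the 10 genes was 18.6%, beside 18.8% for all 1148 genes called higher in CPZ than in CTL, whose middle range ran from 9.01% to 29.2%. The rise that divides the share is the contrast that chose the 10 genes and the 1148. A rise chosen for its size can be too large, and a share of it then too small. Itgax lay at the 94.3rd percentile of those genes and Lyz2 at the 90.9th, Gpr84 at the 21.6th and Cst7 at the 25th. On the log2 scale the median was 45.5%, with no value for all risen genes to set beside it, and the order changed in part. Itgax at 81.5%, Lyz2 at 70.9% and Clec7a at 69.3% still led and Gpr84 at 27.6% was still last. Cst7 stood next after Clec7a, at 49.6%. For Itgax, Cst7, Clec7a and Gpr84, with no more than 5 counts per CTL library, the CTL end of this scale depends on the prior count of 2.

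**Figure D3:**
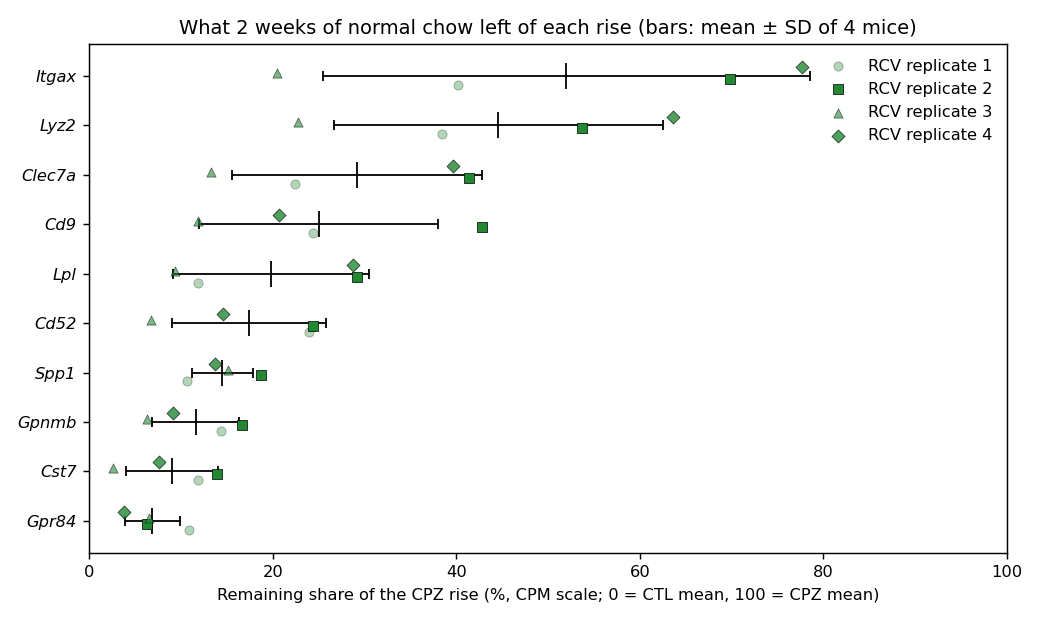
Remaining share of the CPZ rise in percent on the CPM scale, for each gene and RCV mouse; the 4 symbols are the 4 mice and bars are mean ± SD. Itgax ranges from 20.5% to 77.7% and Gpr84 from 3.79% to 10.9%, and RCV replicate 3 is the lowest mouse for most genes.

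Other microglial RNA also moved with the groups. The mean log2-CPM of 15 general microglia markers, among them Csf1r and C1qa, was 4.39 ± 0.109 in CTL (SD, n = 5), 7.02 ± 0.538 in CPZ and 5.27 ± 0.203 in RCV mice (SD, n = 4 each). Each gene was therefore also read as its log2-CPM minus this mean in the same library. On that scale Cst7 was 4.06 higher in CPZ than in CTL mice, Clec7a 3.24, Itgax 2.89, Gpnmb 1.78 and Cd52 1.71, and for these 5 genes each CPZ mouse lay above each CTL mouse, where 0.234% of all genes did. The values that chose the genes are part of this contrast, and nothing is read from that count. Spp1 (0.93), Gpr84 (1.16) and Lyz2 (0.85) overlapped between the groups. Lpl differed by -0.13 with overlap, and Cd9 was lower by 1.06 on the log2 scale in CPZ without overlap. The marker mean was higher in CPZ, so a gene of unchanged CPM is lower on this scale. The share of all genes lower in that way was not counted, and nothing is read from the value of Cd9. Genes at 0 to 5 counts in CTL libraries are held up there by the prior count of 2, which makes their differences between CPZ and CTL smaller.

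Set against the same markers, RCV mice were higher than CTL mice without overlap for 6 genes. These were Itgax by 3.63, Clec7a by 3.20, Cst7 by 2.44, Lyz2 by 1.59, Cd52 by 1.21 and Gpnmb by 0.91. Of all genes 0.254% did so, in a contrast that shares its CTL libraries with the choice of the genes. The marker mean was also higher in RCV than in CTL, so a gene of unchanged CPM is lower in RCV on this scale. Nothing is read from the share of 0.254%. Between CPZ and RCV the genes parted. Cst7 was 1.61 and Gpnmb 0.87 higher in CPZ relative to the markers, without overlap, where 0.12% of all genes were. The marker mean was higher in CPZ than in RCV, so a gene of unchanged CPM is lower in CPZ on this scale. Nothing is read from that share. Single markers had log2 fold changes from 1.14 to 2.68 between CPZ and RCV, beside 2.71 for Gpnmb. Gpr84 was 0.99, Cd52 0.50 and Spp1 0.28 higher with overlap, and Clec7a differed by 0.04. Itgax was 0.74 higher in RCV with overlap. Lyz2 and Cd9 were higher in RCV without overlap, by 0.74 and 0.77, where 92.4% of all genes were.

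**Figure D4:**
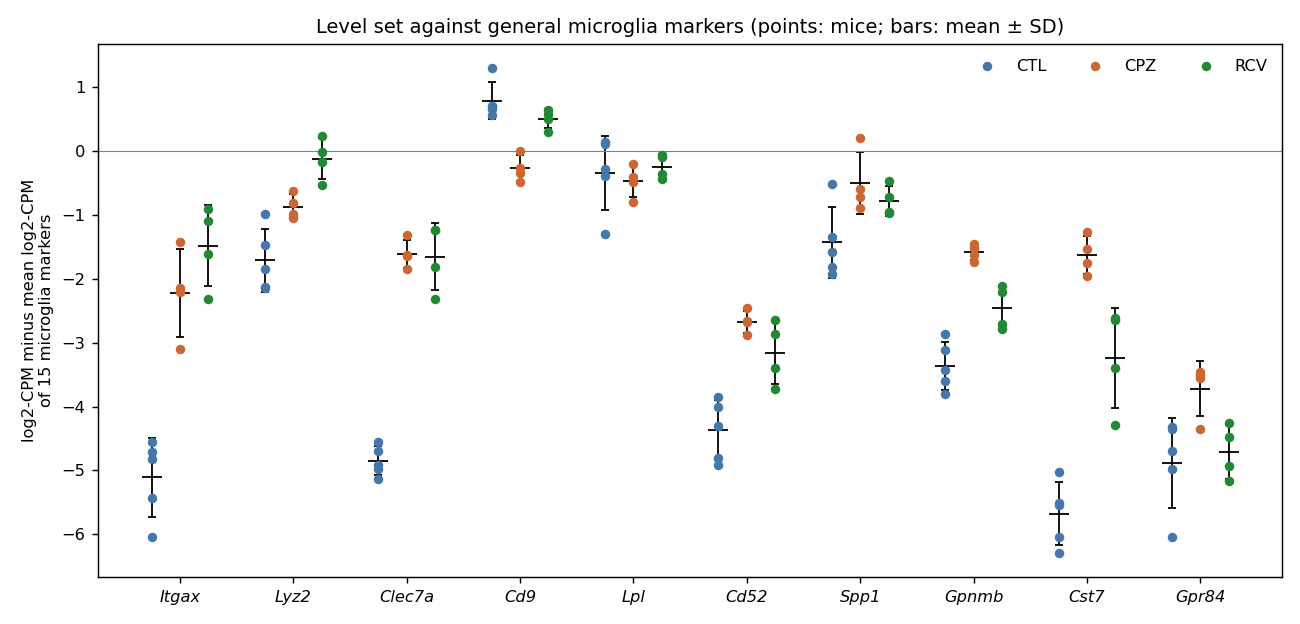
Log2-CPM of each gene minus the mean log2-CPM of 15 microglia markers in the same library; points are mice, bars are mean ± SD. Cst7 and Gpnmb are lower in every RCV than in every CPZ mouse, whereas Lyz2 and Cd9 are higher, as are 92.4% of all genes.

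The mice of a group differed together. CPZ replicate 1 was the highest CPZ mouse for all 10 genes and CPZ replicate 3 the lowest for 9, Itgax being the exception with CPZ replicate 2. The microglia markers put the same mice first and last, at 7.54 and 6.38. RCV replicate 2 was the highest RCV mouse for 7 genes and RCV replicate 3 the lowest for 8. In CTL mice no library led for more than 3 genes. Summed over the 10 genes, CTL mice held 54.9 to 85.4 CPM, CPZ mice 388 to 900 and RCV mice 136 to 239, without overlap. The spread between CPZ mice was above counting error for each gene, with CVs from 26.2% for Cd9 to 68.9% for Spp1 against 3.47% to 11% from counting.

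After the group means were taken out, the Pearson correlation between pairs of the 10 genes over the 13 libraries had a median of 0.46 over 45 pairs. It ran from -0.02 for Itgax with Spp1 to 0.84 for Cst7 with Cd52, and these libraries share depth and tissue composition. Outside the 10 genes, the patterns most like their mean over the 13 libraries, out of 14133 genes, were those of Ctss and C1qa (r = 0.993 each), then Cd300c2, AU020206 and Mpeg1 (r = 0.991 each). Ctss encodes cathepsin S and C1qa a chain of complement C1q. With group means taken out, C1qa (0.935), Rp2 (0.93), Irf5 (0.928), Glmp (0.926) and Tyrobp (0.924) came first.

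A further 28 genes of the programme, listed from general knowledge, gave its wider extent. Between CPZ and CTL 23 of the 28 were called higher, where 7.66% of all genes tested were, and 0 lower. Their median log2 fold change, over the 28, was 1.46 beside -0.0197 for all genes tested. The largest rises were those of the chemokine gene Ccl3 (5.41), of Ch25h (5.39), which makes 25-hydroxycholesterol, and of the inhibitory receptor gene Lilrb4a (5.22). Trem2 rose by 3.04, its adaptor Tyrobp by 3.46 and Apoe, a lipid carrier, by 1.17. The 5 not called were Fth1, Timp2, Fabp5, Ank and Cd83, named after their values were seen. Between RCV and CTL, edgeR called 4 of the 28 higher, where 0.36% of all genes tested were. These were Lilrb4a at 3.52 (adjusted p = 0.0085), Ccl6 at 2.6 (adjusted p = 0.0247), Cd68 at 1.63 (adjusted p = 0.0331) and B2m, named after its value was seen, at 0.86 (adjusted p = 0.0090, edgeR). The list's median was 0.47. Trem2 stood at 1.27 (adjusted p = 0.122), Tyrobp at 1.33 (adjusted p = 0.135) and Apoe at 0.54 (adjusted p = 0.119). Between CPZ and RCV, edgeR called 20 of the 28 higher in CPZ, where 5.13% of all genes tested were. Ch25h (3.70, adjusted p = 0.00069), Ccl3 (2.46, adjusted p = 0.0032) and Ccl6 (2.37, adjusted p = 0.00048, edgeR) led. The 23 called higher in CPZ, and so chosen by that rise, kept a median of 17.2% of it in RCV mice. The shares ran from 5.49% for Ch25h to 41.3% for Lgals3, which encodes galectin-3. The count of 4 for RCV against CTL was 11 with DESeq2 and 1 with limma-voom, and 1 without RCV replicate 2.

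The products that the 10 proteins bind, cut or obey were followed as 24 partner genes, of which 20 could be tested. Gpihbp1, which anchors lipoprotein lipase, its cofactor Apoc2, Lyz1 and Siglecg had under 10 counts in every library. Between CPZ and CTL 8 were called higher and 1 lower, where 7.66% of all genes tested were called higher and 2.5% lower. Itgb2, the beta chain of CD11c, rose by 3.31, Cd44, an osteopontin receptor, by 2.48 and Ctsh by 2.28 on the log2 scale. Ctsc, the cathepsin whose activation cystatin F restrains, rose by 2.05 and Ctsl, which also stands among the 28, by 1.4. The tetraspanin partner gene Igsf8 fell by 0.28. Mitf, whose product is known to act on Gpnmb, had 0.54 (SE 0.21, adjusted p = 0.132, edgeR). Between RCV and CTL edgeR called 0 of the 20, with 7 below an unadjusted p of 0.05, DESeq2 called 2 and limma-voom 0. There Itgb2 stood at 1.26 (adjusted p = 0.122, edgeR), so the alpha chain Itgax was called in this contrast and the beta chain was not, a difference that was not itself tested. Ctsc had 0.74, Cd44 0.76, Ctsl 0.28 and Mitf -0.13 in the same contrast, with adjusted p values in edgeR from 0.16 to 0.994. Between CPZ and RCV 8 of the 20 were called higher in CPZ and Igsf8 lower, where 5.13% of all genes tested were called higher and 1.88% lower. The rises were led by Itgb2 (2.05, adjusted p = 0.00042), Cd44 (1.72, adjusted p = 0.00035) and Ctsh (1.59, adjusted p = 0.00037, edgeR).

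Genes of resting microglia were read as a further list. Of 10 homeostatic genes, edgeR called 9 higher under CPZ than in CTL, where 7.66% of all genes tested were, and 0 lower. Gpr34 (1.96), Tgfbr1 (1.41) and Selplg (1.36) led. The median log2 fold change of the 10 was 1.22, beside 2.65 for the 15 general microglia markers. Between RCV and CTL edgeR called 0 of the 10, with 2 below an unadjusted p of 0.05 and a median of 0.17. Of the 15 general microglia markers, which include Tyrobp, edgeR called 15 in both CPZ contrasts, each higher in CPZ, and 1, Ctss (1.24, adjusted p = 0.0284), in RCV against CTL. Of the 6 core markers among them, 6 and 6 were called in the CPZ contrasts and 0 in RCV against CTL, with 5 at an unadjusted p below 0.05. Against RCV, 9 of the 10 homeostatic genes were called higher in CPZ, where 5.13% of all genes tested were. Gpr34 (1.59, adjusted p = 0.00075), Tmem119 (1.24, adjusted p = 0.0020) and Selplg (1.21, adjusted p = 0.0012, edgeR) led.

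Markers of other cell types that can carry these genes were read beside them. Of 6 blood monocyte markers, among them Ccr2 and Ly6c2, all 6 had under 10 counts in every library, and their summed level was 0.272 to 3.75 CPM in CTL, 0.288 to 1.39 in CPZ and 0.81 to 2.79 in RCV mice. Of 8 border macrophage markers, 5 (Cd163, Lyve1, Pf4, Cbr2 and Folr2) had under 10 counts in every library and 1 of the 3 tested, Stab1, was called higher in CPZ (log2 fold change 1.70, named after its value was seen), while Mrc1 had 0.71 and F13a1 0.08. The sum of the 8, most of it Stab1, was 16.9 to 26.6 CPM in CTL, 42.2 to 69.3 in CPZ and 21.2 to 28.4 in RCV mice, and their part in the results was not tested. Dendritic cell markers summed to 17.7 to 30.7, 22.1 to 30.7 and 21.7 to 31.4 CPM in CTL, CPZ and RCV mice, with 0 of 2 tested called in any contrast and Xcr1 at 0 in every library. Almost all of that sum was Flt3 and Zbtb46, named after their values were seen. The other 4 dendritic markers had under 10 counts in every library. Neutrophil markers summed to at most 11.7 CPM in CTL, 0.646 in CPZ and 16.4 in RCV mice, and T and NK cell markers to 2.45 to 22.4, 5.16 to 15.3 and 0.77 to 17.8 CPM. Over all libraries most T and NK cell counts were those of Cd4, named after its value was seen. The other 5 of these markers had under 10 counts in every library. All 10 mature oligodendrocyte genes were called lower in CPZ than in CTL, where 2.5% of all genes tested were, with a median log2 fold change of -1.54. In CPZ against RCV 9 of them were called lower, where 1.88% of all genes tested were. Between RCV and CTL 0 were called, also at an unadjusted p below 0.05. Endothelial markers summed to 240 to 274 CPM in CTL, 220 to 248 in CPZ and 219 to 239 in RCV mice, with 1 of 6 called lower in RCV than in CTL (0.0133% of all genes tested were). The summed hippocampal neuron markers overlapped between all groups, at 174 to 315 CPM in CTL, 186 to 242 in CPZ and 181 to 360 in RCV mice. Of 6 astrocyte markers, 4 were called higher in CPZ and 2 in RCV against CTL and 2 in CPZ against RCV. Of 5 oligodendrocyte precursor markers 1 was called higher in CPZ against CTL. The shares of all genes tested called higher were 7.66% for CPZ against CTL, 0.36% for RCV against CTL and 5.13% for CPZ against RCV.

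Depth set the limits for the lowest values. Libraries held 4605100 to 8197289 estimated counts, so 1 count stood for about 0.122 to 0.217 CPM. CTL levels of Itgax, Cst7, Clec7a and Gpr84 were fixed by no more than 5 counts per library, and those of Cd52 by 2 to 7. RCV replicate 4 was the shallowest library and still held 103 counts of Itgax and 81 of Clec7a. Nothing in the labels describes extraction or sequencing batches.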

How the data were processed

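The authors prepared mRNA libraries from hemisphere RNA (Kapa mRNA HyperPrep) and sequenced short paired-end reads. GEO's processing notes name STAR, RSEM and mm10, the paper names RNASequest, and their versions are not stated in those sources. The authors deposited unscaled estimated counts for each gene and TPM, scaled by the authors to transcript length and library size. Of the estimated counts 4.45% were not whole, and all were rounded. The 92 spike-in identifiers held 0 counts. Positions are from GENCODE M21 (GRCm38), which matched 98.1% of the identifiers.

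Rounded counts passed filterByExpr with the groups, received TMM factors and entered edgeR 4.0.16 (robust quasi-likelihood F test) in 1 fit of 13 libraries with a mean per group. The adjusted p threshold was 0.05 over all genes, and log2-CPM used a prior count of 2. Each SE of an edgeR fold change was calculated back from the test, as the absolute log2 fold change divided by the square root of F. The chi-square per gene between mice of a group ran from 4.45 to 17, more than counting alone gives. Nothing states separate housing or extraction, so p values measure the spread between these mice. The test was run on simulated counts with known changes first. Named genes were the 10 genes, genes listed for their role, the 3 largest called rises and 2 largest falls of each list and contrast, genes at 0 throughout and the 5 nearest patterns. Genes and lists were chosen with earlier results of these data known. Alternatives used DESeq2 1.42.0 and limma 3.58.1 in R 4.3.3. Other work used Python 3.11.15.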

Additional observations from a re-analysis of the deposited data

How the results depend on the processing

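No fitted fold change of the 10 genes turned its direction in any alternative fit that gave it a value. Relative to the microglia markers, some directions did turn, as given above. Requiring at least 10 counts in every library gave values for Spp1, Lpl, Cd9 and Lyz2 only. The fit with only RCV and CTL gave none for Cst7 and Gpr84, which did not pass the filter without the CPZ libraries. For RCV against CTL, 4 of the 10 genes were called, but 7 with DESeq2, 0 with limma-voom, 1 with at least 10 counts in every library (a filter that 4 of the 10 passed) and 2 to 7 with each library left out. That filter left 4 genes called for CPZ against CTL and 3 for CPZ against RCV. The latter was otherwise 8 to 9, also with each library left out. All genes called for RCV against CTL numbered 56, and 131 with DESeq2, 12 with limma-voom, 20 with at least 10 counts in every library and 21 to 87 with a library left out (26, 29, 30 and 29 without CTL replicate 1, 3, 4 or 5, 87 without CPZ replicate 3, 33 and 21 without RCV replicate 1 or 2). For CPZ against RCV they numbered 1050, and 599 and 508 on log2 TPM with a pseudocount of 1 and 0.1, and 632 to 1170 with a library left out (632 and 693 without CPZ replicate 1 or 2). For CPZ against CTL they numbered 1522, and 1078 to 1680 with a library left out.

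Of the 28 further genes, 4 were called for RCV against CTL, and 11 with DESeq2, 1 with limma-voom, 7 on log2(TPM + 1), 1 with at least 10 counts in every library, 9 with only those groups in the fit and 1 to 8 with a library left out (2 without CTL replicate 1, 3, 4 or 5 or RCV replicate 4, 1 without RCV replicate 2, 7 and 8 without CPZ replicate 1 or 3). Of the partner genes, 0 were called there, and 2 with DESeq2, 1 with only those groups, 1 with the replicate block and 0 to 1 with a library left out. The cause of these shifts was not tested.

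Single calls between RCV and CTL moved too. Cst7 and Gpnmb were called on log2 TPM, by DESeq2 (adjusted p = 4.5e-07 and 1.1e-05), with the replicate block (adjusted p = 0.0020 each) and without CPZ replicate 1 or 3. The filter on counts kept Cst7 only through the CPZ libraries, so nothing is read from its calls on counts. Gpnmb and Spp1 were called with only RCV and CTL in the fit (adjusted p = 0.0048 and 0.0190). Spp1 was also called by DESeq2 (adjusted p = 0.0483) and without CPZ replicate 1 (adjusted p = 0.0321). Lyz2 lost its call when CTL replicate 4 was left out (adjusted p = 0.0520). Leaving out RCV replicate 2 ended the calls of Lyz2 (adjusted p = 0.0720) and Cd52 (adjusted p = 0.0536). Between CPZ and RCV, Lyz2 was called without CTL replicate 2 (adjusted p = 0.0446). These adjusted p values are from edgeR unless DESeq2 is named.

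The median remaining share was 18.6%, and 45.5% on log2-CPM and 15.9% to 23.5% with a library left out. Relative to microglia markers, 2 genes were lower in each RCV than in each CPZ mouse, and 1 gene on log2(TPM + 0.1). Of all genes 0.12% were, a share that the subtraction of the marker mean lowers. The replicate numbers did not pair the mice: same-numbered mice had correlated deviations from -0.199 to 0.136. With the replicate block, 6 of the 10 genes were called for RCV against CTL and 42 genes in all, 8 of the 10 and 755 in all for CPZ against RCV and 1172 in all for CPZ against CTL.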
